A study of Mus musculus with 10 samples.

Results

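The calcitonin family genes were examined in sorted mouse mammary luminal cells with and without RSK2, a ribosomal S6 kinase encoded by Rps6ka3. The set holds 8 genes: the receptor activity-modifying proteins Ramp1, Ramp2 and Ramp3, the receptors Calcrl and Calcr, and the peptide genes Calca, Calcb and Adm. It was put together around Ramp1 because Ramp1 was higher in knockout than in wild-type cells at estrus. The values of all members in that comparison, their genotype difference between stages, and the values of Ramp1 between stages are therefore given as descriptions with no test. Of the 8 genes, 7 were matched among the 26312 genes analysed, and Calcr was not analysed here. Of these 7, 5 averaged 10 or more normalized counts across all libraries and entered the fits (Ramp1, Ramp2, Calca, Calcb and Adm), and Ramp3 and Calcrl did not.

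RNA was sequenced from RSK2(+/+) wild-type (WT) and RSK2(-/-) knockout (KO) C57BL/6J mice aged 12 weeks. There were 3 WT and 3 KO libraries at estrus, the stage around ovulation, and 2 WT and 2 KO libraries at diestrus, the stage in which progesterone is high. All 10 came from luminal epithelial cells of the fourth mammary glands sorted as EpCAM-hi, Sca1+, CD49b- and CD49f low or positive, a gate for hormone-sensing luminal cells. Whether a library held cells of 1 mouse or of several was not given in the sources used here, so p-values measure the spread between libraries. The knockout allele and whether Rsk2 was absent from the whole animal were also not given, and the titles of the KO libraries carry the word WT beside the RSK2(-/-) genotype.

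Calcitonin family peptides signal through class B receptors coupled to Gs and cyclic AMP. The calcitonin receptor-like receptor, encoded by Calcrl, reaches the cell surface and binds ligand only as a complex with a RAMP: with RAMP1 it is the receptor for calcitonin gene-related peptide (CGRP), and with RAMP2 or RAMP3 it is a receptor for adrenomedullin. The calcitonin receptor, encoded by Calcr, binds calcitonin alone and amylin together with a RAMP, and it is known from mammary luminal cells in pregnancy. RAMPs also bind other class B receptors, among them the vasoactive intestinal peptide receptor VPAC1, encoded by Vipr1.

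The libraries held 14108057 to 15307238 normalized counts each, from an estimated 12.0 to 16.7 M counted reads, and 3 reads corresponded to 2.54 to 3.58 normalized counts. Rps6ka3 itself was measured at 128 to 137 normalized counts in WT and 156 to 164 in KO at estrus, and at 139 to 165 in WT and 156 to 165 in KO at diestrus. It was not lower in the KO libraries, so its transcript level did not check the genotype labels. The 9 luminal hormone-sensing markers summed to between 326380 and 431419 normalized counts in every library. Most of that sum was Krt8, Krt18 and Epcam, and single markers varied more. Prom1 was 2191, 3414 and 9671 in KO estrus, 12984 and 13432 in KO diestrus and 3868 to 8146 in WT. Ly6a, the gene of Sca1, was 21549 to 27186 in KO estrus, 14585 and 10512 in KO diestrus and 14488 to 28010 in WT. Esr1 (1468 to 3334) and Foxa1 (2585 to 5650) overlapped between stages in KO. The KO estrus libraries stood apart in one technical measure: their log2 values changed with transcript length by -0.104, -0.0276 and -0.0614 per doubling of length, against -0.0188 to 0.0506 in the other 7 libraries.

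Ramp1 (ENSMUSG00000034353; chromosome 1, 91179822 to 91225196, plus strand, mm10) encodes the accessory protein that makes Calcrl a CGRP receptor. It was measured at 209, 609 and 603 normalized counts in the 3 WT libraries at estrus and at 1543, 1377 and 1542 in the 3 KO libraries. At diestrus it was 391 and 232 in WT and 281 and 384 in KO. All 3 KO estrus libraries lay above the other 7, by more than 2-fold over the highest of them. Within WT, the range at estrus took in the range at diestrus, because the first WT estrus library was lower than both diestrus libraries.

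The mean of Ramp1 at estrus was 1487 ± 95.5 (SD, n = 3) in KO and 473.7 ± 229 (SD, n = 3) in WT, a ratio of 3.14 and a difference of 1.80 ± 0.35 (SE) on the log2(value + 1) scale. This difference chose the gene set and is no evidence for it. With the first WT estrus library left out it was 1.29 ± 0.22, the lowest of the values with 1 library left out, which ran up to 2.06. That library also stood apart in the sum of its basal epithelial markers, 2107 normalized counts against 437 to 1262 in the other 9, mostly through Krt14 and Krt17. After each library's trend with transcript length was removed the Ramp1 difference was 1.76. With that trend removed, 231 of 15146 genes passed between KO and WT at estrus (limma, adjusted p below 0.05), against 637 of 15180 without this step. At this stage 4.20% of the 15180 genes tested differed at an adjusted p below 0.05 (limma, Benjamini-Hochberg), and in 26.0% the 3 KO and 3 WT values did not overlap. In bulk RNA a larger share of Ramp1-expressing cells and more Ramp1 RNA per cell cannot be told apart.

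At diestrus the KO and WT values of Ramp1 overlapped. The means were 332.5 ± 72.8 in KO and 311.5 ± 112 in WT (SD, n = 2 each), a log2 difference of 0.12 ± 0.43 with a 95% interval of -0.82 to 1.07 (limma, adjusted p = 0.996). Leaving out the second WT or the second KO diestrus library turned the sign of this small difference, to -0.25 and -0.10. The genotype difference was 1.68 ± 0.56 larger at estrus than at diestrus on the log2 scale, a value that rests on the libraries that chose the gene and was not tested. Within KO, Ramp1 was 4.47 times as high at estrus as at diestrus (2.17 ± 0.39 on the log2 scale). Within WT the same comparison gave 0.50 ± 0.39, and 1.01 ± 0.24 without the first WT estrus library.

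The 250 bases before the RefSeq start of Ramp1 are shown because it is the member with the widest spread between groups at high counts. The window lies at chr1:91179572-91179821 on the plus strand of GRCm38.p6, and capitals mark the motif searched for.

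Ramp1: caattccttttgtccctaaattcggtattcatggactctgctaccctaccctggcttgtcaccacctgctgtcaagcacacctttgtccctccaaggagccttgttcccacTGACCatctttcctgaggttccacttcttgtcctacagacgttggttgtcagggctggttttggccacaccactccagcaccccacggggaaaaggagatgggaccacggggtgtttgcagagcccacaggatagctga

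The window held 1 copy of GGTCA, the half-site of estrogen and other nuclear receptors, read on the reverse strand as TGACC and starting 139 bases before the start. Copies of GGTCA on either strand occurred in 35.2% of 32851 mouse promoter windows of this length. The full estrogen response palindrome, GGTCA and TGACC with any 3 bases between, present in 0.0639% of windows, and the cyclic AMP response element TGACGTCA, present in 1.55%, had no match in these letters.

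**Figure D1:**
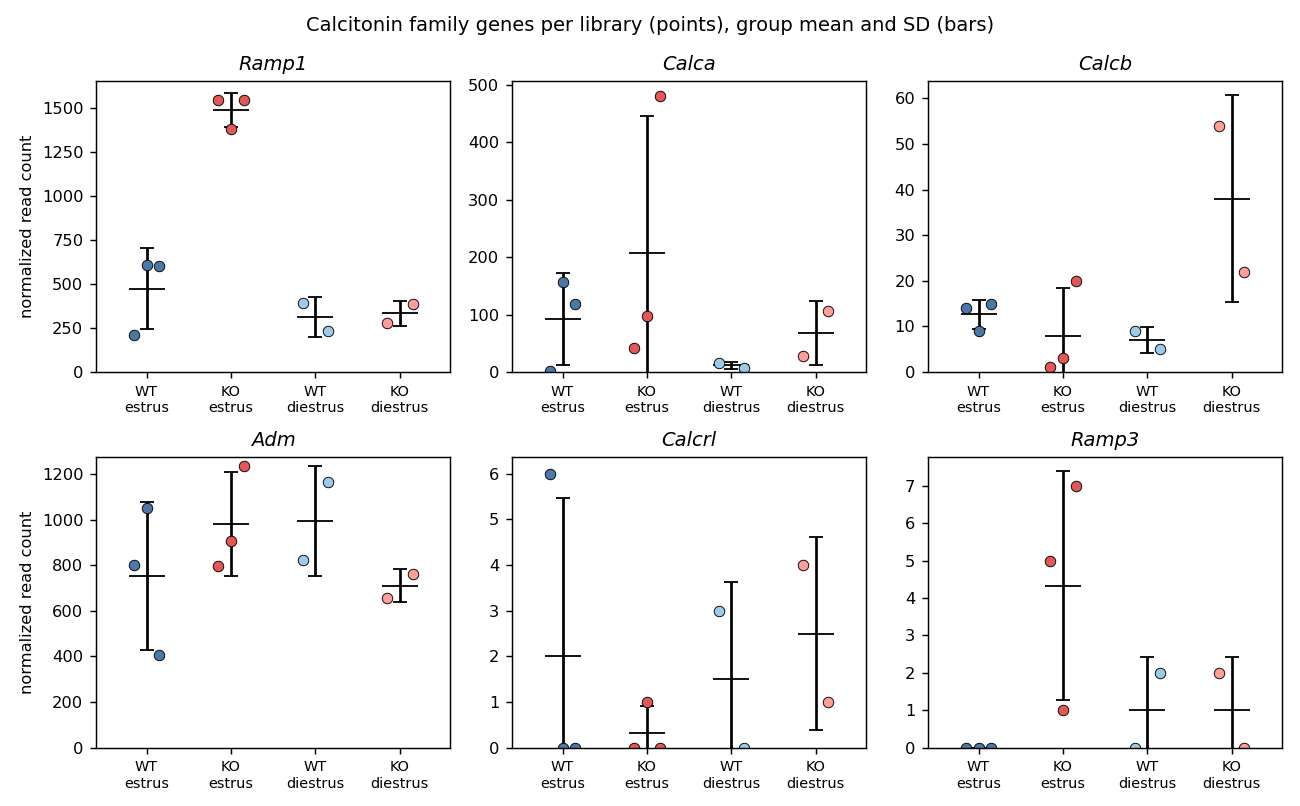
Normalized counts of 6 family genes in each of the 10 libraries, by genotype and stage; points are libraries, horizontal marks are group means and bars are the SD, cut at 0. Ramp1 in the 3 KO estrus libraries, 1377 to 1543, lies above all other libraries, which reach 609.

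Ramp2 (ENSMUSG00000001240; chromosome 11, 101246028 to 101259546, plus strand) encodes the partner that makes Calcrl an adrenomedullin receptor. Its row read 1556, 1323 and 1363 normalized counts in WT and 1650, 1525 and 1718 in KO at estrus, and 1329 and 1261 in WT and 1281 and 1175 in KO at diestrus. These values cannot be read as Ramp2 alone. Vps25, a subunit of the ESCRT-II sorting complex, lies on the same strand at 101253707 to 101259549, inside the annotated span of Ramp2 but for its last bases. In the GENCODE annotation the genes share 1103 exon bases, of 3301 in Ramp2 and 1642 in Vps25. The Vps25 row read 1556, 1324 and 1361 in WT and 1647, 1523 and 1720 in KO at estrus, and 1319, 1256, 1277 and 1176 at diestrus in the same order. Ramp2 exceeded Vps25 by at most 10 normalized counts in any library and was below it by at most 2, in rows of more than 1100.

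Ramp2 has 2198 exon bases outside Vps25, and Vps25 has 539 outside Ramp2. How reads in shared exons were assigned was not given in the sources used here, and how much of either row came from each gene was not tested. Among 1977 pairs of genes with overlapping exons and means of at least 100, 4 pairs agreed within 1% in all 10 libraries, and Ramp2 with Vps25 was 1 of them.

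**Figure D2:**
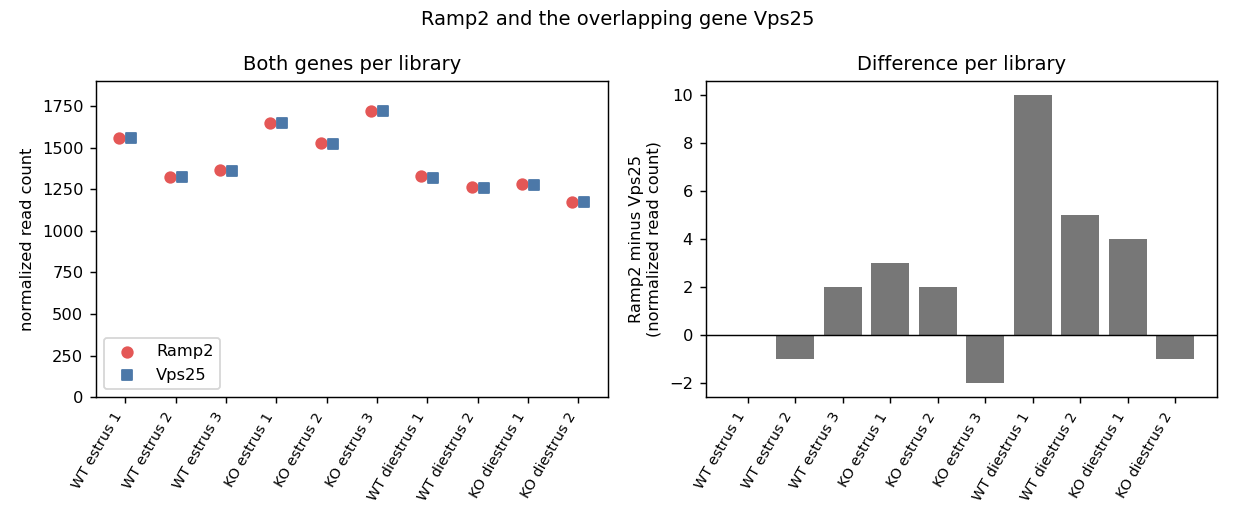
Left, normalized counts of Ramp2 (circles) and Vps25 (squares) in each of the 10 libraries; right, Ramp2 minus Vps25 in each library as bars, in normalized counts. The symbols sit side by side in every library, and the differences run from -2 to 10.

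The shared Ramp2 and Vps25 row did not differ between KO and WT at diestrus by more than the spread between libraries (log2 difference -0.08 ± 0.15, 95% interval -0.40 to 0.25, limma adjusted p = 0.996). Within KO it was higher at estrus than at diestrus by 0.41 ± 0.14, with no overlap and an adjusted p of 0.0593. That value missed the threshold, and it passed under quantile normalization (0.50, adjusted p = 0.0284), with library weights (0.38, adjusted p = 0.0348) and without the first WT estrus library (0.41, adjusted p = 0.0445). In every other alternative it missed. With the transcript length trend removed it was 0.34 (limma adjusted p = 0.109), and without the third KO estrus library 0.37 (adjusted p = 0.11). With no trend in the spread the adjusted p was 0.0986. In WT the stage difference was 0.12 ± 0.14 (adjusted p = 1).

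Ramp3 (ENSMUSG00000041046; chromosome 11, 6658521 to 6677475, plus strand), the other adrenomedullin receptor partner, was near the limit of detection. It was at 0 in the 3 WT estrus libraries, where 3 reads corresponded to 2.85 to 3.11 normalized counts, and at 5, 1 and 7 in the KO estrus libraries. At diestrus it was 0 and 2 in WT and 2 and 0 in KO. Of the 3 RAMP genes, Ramp1 was thus the one with a row of its own well above the limit of detection.

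Calcrl (ENSMUSG00000059588; chromosome 2, 84330626 to 84425411, minus strand), the receptor that CGRP and adrenomedullin share, was also near the limit of detection. It read 6, 0 and 0 normalized counts in WT and 0, 1 and 0 in KO at estrus, and 3, 0, 4 and 1 at diestrus (2 WT and then 2 KO libraries). The 3 KO estrus libraries, where Ramp1 was highest, thus held at most 1 normalized count of Calcrl each. The level of Calcrl in the whole set averaged 1.5, against 717.1 for Ramp1 with fewer exon bases (3022, against 4882 for Calcrl).

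Endothelial cells are a known site of high Calcrl. Of the 10 endothelial markers, 7 had a mean below 10 and none was at 0 in all libraries: Cdh5 was at 0 to 5, Kdr at 0 to 3, Cldn5 at 0 to 6, Tek at 0 to 7, Tie1 and Emcn at 0 to 10 and Esam at 2 to 13 normalized counts. The other 3 were higher, Pecam1 at 18 to 76, Egfl7 at 100 to 215 and Vwf at 494 to 1291. The sum of all 10 endothelial markers was 715 to 1136 in WT estrus, 781 to 1552 in KO estrus, 782 to 798 in WT diestrus and 711 to 781 in KO diestrus. The sum of the fibroblast markers differed more, at 107 to 3101 in KO estrus, 654 to 1610 in WT estrus, 580 to 648 in WT diestrus and 94 to 117 in KO diestrus. Most of that sum was Dcn, at 731, 3065 and 88 in the 3 KO estrus libraries, in which Ramp1 was 1543, 1377 and 1542. The other fibroblast markers stayed low in every library: Col1a1 at 1 to 11, Col1a2 at 1 to 9, Col3a1 at 3 to 21, Pdgfra at 1 to 15 and Lum at 0 to 3.

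Other marker lists moved in part with the members. The sum of 8 macrophage markers was 573 to 789 in KO estrus, where Ramp1 was highest, against 330 to 596 in WT estrus, 540 to 577 in WT diestrus and 422 to 433 in KO diestrus. Among them Cd74 was 409, 436 and 215 and C1qb 44, 30 and 8 in the 3 KO estrus libraries, against 32 to 255 and 0 to 16 in the other 7. C1qa (12, 18 and 4) and C1qc (10, 19 and 5) went with C1qb at low counts. Csf1r, the highest by mean, was 187, 189 and 205 there against 192 to 278, and Cd68 was 123, 53 and 131 against 65 to 134. These did not rise, and Adgre1 (0 to 5) and Mrc1 (0 to 6) were near the limit of detection. The sum of the 3 erythroid markers measured was 313 to 450 in KO and 58 to 132 in WT at diestrus, where both KO libraries also lay above both WT libraries in Calca and Calcb, and 139 to 357 in KO and 53 to 421 in WT at estrus. The high basal sum of the first WT estrus library, which had the lowest Ramp1 and Calca, was mostly Krt14 at 903 and Krt17 at 893. In that library Krt5 at 54, Acta2 at 167, Myh11 at 25 and Cnn1 at 43 lay within the range of the other libraries. Trp63 at 10 and Oxtr at 12 were the highest of all libraries, at low counts. The part of these cell types in the members' values was not tested.

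Calca (ENSMUSG00000030669; chromosome 7, 114631478 to 114636357, minus strand) encodes calcitonin and alpha-CGRP by alternative splicing, and a gene-level count does not separate them. Its values spread widely between libraries of 1 group: 2, 156 and 119 normalized counts in WT and 42, 97 and 481 in KO at estrus, and 16 and 7 in WT and 28 and 107 in KO at diestrus. The first WT estrus library, which had the lowest Ramp1 value, also had the lowest Calca value. The groups overlapped at estrus, and at diestrus both KO libraries lay above both WT libraries.

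The mean of Calca at diestrus was 67.5 ± 55.9 in KO and 11.5 ± 6.36 in WT (SD, n = 2 each). The log2 difference of 2.26 ± 1.59 was within the spread (95% interval -1.20 to 5.73, limma adjusted p = 0.941). At estrus the means were 206.7 ± 239 in KO and 92.3 ± 80.4 in WT (SD, n = 3 each), and the log2 difference of 1.72 ± 1.30, given as a description, became -0.12 without the first WT estrus library. Estrus exceeded diestrus by 1.72 ± 1.45 in WT (adjusted p = 1) and by 1.18 ± 1.45 in KO (adjusted p = 0.611), neither beyond the spread.

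The window before the Calca start, chr7:114636358-114636607 on the minus strand, and that before Adm, chr7:110627407-110627656 on the plus strand, are printed because these are the peptide genes with means above 100. Capitals mark GGTCA and the half-site of the cyclic AMP response element, TGACG, in the first, and GGTCA and the hypoxia element core GCGTG in the second, on either strand.

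Calca: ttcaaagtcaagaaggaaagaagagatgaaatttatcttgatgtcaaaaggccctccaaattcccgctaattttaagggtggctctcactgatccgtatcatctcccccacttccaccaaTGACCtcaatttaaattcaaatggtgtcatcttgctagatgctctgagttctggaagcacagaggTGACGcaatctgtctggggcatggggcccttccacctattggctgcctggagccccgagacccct

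Adm: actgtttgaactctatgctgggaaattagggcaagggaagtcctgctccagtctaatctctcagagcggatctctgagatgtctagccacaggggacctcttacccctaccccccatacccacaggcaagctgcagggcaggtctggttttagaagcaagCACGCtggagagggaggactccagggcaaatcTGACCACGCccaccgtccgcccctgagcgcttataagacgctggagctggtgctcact

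The Calca window held TGACG 65 bases before the start on the gene's strand and GGTCA on the other strand at 130 bases. The Adm window held GCGTG on the reverse strand at 90 and 54 bases and GGTCA on the reverse strand at 58 bases, where the last 2 overlap. TGACG was found in 17.8%, GCGTG in 28.2% and the other hypoxia core, ACGTG, in 16.6% of all windows, so each match is common. The RefSeq table used here held no entry for Ramp2 or Calcb.

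Calcb (ENSMUSG00000030666; chromosome 7, 114718643 to 114723365, plus strand), the gene of beta-CGRP, was the lowest member that was tested. It read 14, 9 and 15 normalized counts in WT and 1, 3 and 20 in KO at estrus, and 9 and 5 in WT and 54 and 22 in KO at diestrus. The diestrus KO libraries were the highest of the 10, and the third KO estrus library, at 20, lay just under the lower of them. The other 2 KO estrus libraries were the lowest. Without the KO diestrus libraries its mean was 9.5, so it reached the minimum mean of 10 only through the group where it is highest. Of the 5 members tested it was the only one for which leaving out a group had this effect. A difference that involves KO diestrus was thus built into its entry, and its p-values and calls in those comparisons are given for the record and support nothing.

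Within KO the mean of Calcb was 38.0 ± 22.6 (SD, n = 2) at diestrus and 8.00 ± 10.4 (SD, n = 3) at estrus. The log2 difference was -2.69 ± 0.84 with a 95% interval of -4.52 to -0.86 (limma adjusted p = 0.0475). With no filter on low values the difference was the same and the adjusted p was 0.0944. Of the 4 members that entered this comparison Calcb was the 1 past the threshold, beside 16.6% of all tested genes, 8.95% as lower at estrus. At an unadjusted p below 0.05 the Ramp2 row joined it, 2 of 4 members beside 33.8% of all genes, and the stages did not overlap for the Ramp2 row, Calcb and Adm, as for 51.0% of all genes. The call was also lost when any 1 library other than the third KO estrus library was left out (adjusted p = 0.0545 to 0.275), and without that library the difference was -3.65 (adjusted p = 0.00786). It was lost, too, with a pseudocount of 0.5 (adjusted p = 0.0501), with no trend in the spread (0.0704) and when the KO libraries were fitted alone (0.0911).

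At diestrus the means of Calcb were 38.0 in KO and 7 in WT, with no overlap and a log2 difference of 2.20 ± 0.92. The unadjusted p was 0.0341 and the adjusted p 0.778 (limma), so the difference did not pass even after that entry. None of the 5 members tested passed at diestrus, where 0.0395% of all tested genes did. At an unadjusted p below 0.05, Calcb was the 1 member of 5, beside 5.92% of all tested genes. Values of KO and WT did not overlap for Calca, Calcb and Adm, as for 43.1% of all tested genes with 2 libraries a group. At estrus the log2 difference of Calcb was -1.28 ± 0.75 as a description, and -2.24 without the third KO estrus library. The WT stage difference was 0.79 ± 0.84 (adjusted p = 1).

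Adm (ENSMUSG00000030790; chromosome 7, 110627661 to 110629820, plus strand) encodes adrenomedullin, a vasodilator peptide and a known target of hypoxia-inducible factors. It was measured in every library, at 802, 1050 and 408 normalized counts in WT and 798, 905 and 1234 in KO at estrus, and at 824 and 1163 in WT and 658 and 760 in KO at diestrus. The estrus groups overlapped, and at diestrus both KO libraries were below both WT libraries. An antisense gene, Gm28863, overlaps Adm and read 0 to 3, and Gm11978, antisense to Ramp3, read 0 or 1; whether counting used strand was not given in the sources used here. The diestrus means were 709.0 ± 72.1 in KO and 993.5 ± 240 in WT (SD, n = 2 each), a log2 difference of -0.47 ± 0.36 that did not pass (limma adjusted p = 0.958).

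The estrus difference of Adm was 0.46 ± 0.30 as a description and 0.07 without the third WT estrus library, the lowest of all. Between stages Adm differed by 0.44 ± 0.33 within KO (adjusted p = 0.376; no overlap) and by -0.48 ± 0.33 within WT (adjusted p = 1). In WT none of the 4 members tested passed between stages, by either the adjusted or the unadjusted p, and of all tested genes 0.00% passed after adjustment and 3.87% at an unadjusted p below 0.05.

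**Figure D3:**
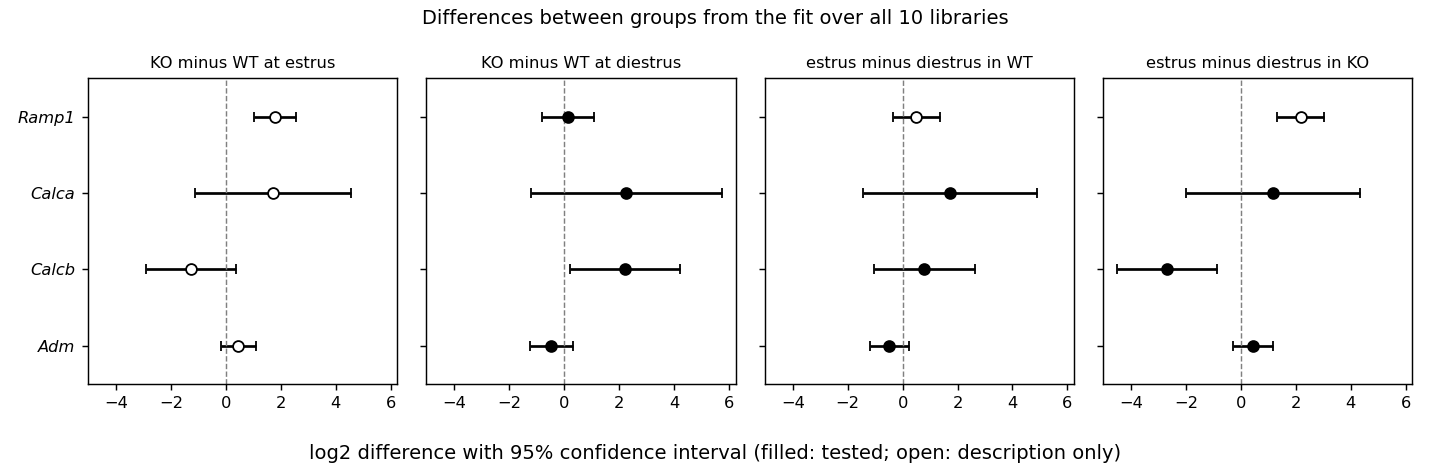
Log2 differences of Ramp1, Calca, Calcb and Adm in 4 comparisons (KO minus WT at each stage, estrus minus diestrus in each genotype) as points, with limma's 95% intervals as bars; open points are descriptions and filled points were tested. Of the filled points, Calcb within KO between stages (-4.52 to -0.86) and Calcb at diestrus (0.20 to 4.20) have intervals that leave out 0, before adjustment over genes and after an entry through the high KO diestrus values.

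Levels were compared between genes per kilobase of annotated exon. In WT at estrus Adm came first, at a mean of 465 normalized counts per kilobase (252 to 649), followed by Ramp1 at 157 (69.2 to 202), Calca at 54.8 (1.19 to 92.6) and Calcb at 10.0 (7.12 to 11.9). Ramp1 and Calca overlapped, as did Calca and Calcb, and the ranges of Adm and Ramp1 did not. In KO at estrus Adm averaged 605 (493 to 762) and Ramp1 492 (456 to 511), and these ranges overlapped. Calca followed at 123 (24.9 to 286) and Calcb at 6.33 (0.791 to 15.8).

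At diestrus the order in WT was Adm (614), Ramp1 (103), Calca (6.83) and Calcb (5.54), with Calca and Calcb overlapping. In KO it was Adm (438), Ramp1 (110), Calca (40.1) and Calcb (30.1), again with the last 2 overlapping. Ramp3 and Calcrl stayed at group means of at most 3.14 and 0.512 per kilobase. Of the members that could be read on their own, Adm and Ramp1 thus had the highest group means in each of the 4 groups.

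**Figure D4:**
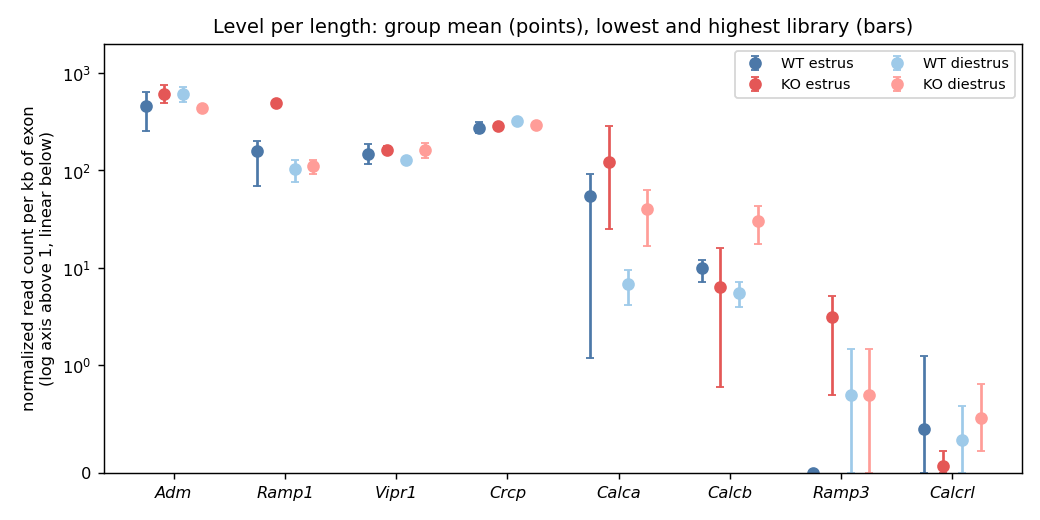
Group means of normalized counts per kilobase of exon for 6 family genes, Vipr1 and Crcp on an axis that is logarithmic above 1 and linear below, with bars from the lowest to the highest library of each group. Ramp1 in the KO estrus libraries, 456 to 511 per kilobase, overlaps Adm at 493 to 762, while Calcrl and Ramp3 stay under 6 in every library.

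Of 14 further peptides and receptors of the family and of RAMP partners, 10 were in the table and 3 passed the filter. Vipr1, the RAMP-binding VPAC1 receptor, was at 675, 1096 and 783 normalized counts in WT and 882, 1044 and 934 in KO at estrus, and at 780 and 721 in WT and 775 and 1122 in KO at diestrus. It thus overlapped in both genotype comparisons, and its log2 difference at estrus was 0.19 ± 0.19 (limma adjusted p = 0.571). Per kilobase it averaged 129 to 164 in the 4 groups, close to Ramp1 in WT. Crcp, the CGRP receptor component that also belongs to RNA polymerase III, averaged 430.3 to 509.0. Ackr3, a scavenger receptor that takes up adrenomedullin, averaged 22 in both genotypes at estrus and 3.5 in WT and 13.5 in KO at diestrus (log2 difference 1.77 ± 0.63, adjusted p = 0.657). None of the 3 passed in any of the 4 comparisons. Of all tested genes 4.20% passed in KO against WT at estrus, 0.0395% at diestrus, 0.00% between stages in WT and 16.6% between stages in KO. Ackr3 was the 1 gene of the 3 with an unadjusted p below 0.05 (limma) at diestrus and between stages in WT, beside 5.92% and 3.87% of all tested genes.

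For the lists that follow, the shares over all tested genes are the measure beside each count. At an adjusted p below 0.05 they were 4.20% for KO against WT at estrus, 0.0395% at diestrus, 0.00% between stages in WT and 16.6% between stages in KO. At an unadjusted p below 0.05 they were 25.8%, 5.92%, 3.87% and 33.8% in the same order.

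Among 13 genes of peptide processing and clearance, 9 were tested. Ide, the insulin-degrading enzyme, fell in KO at estrus, from a mean of 3309 ± 1215 in WT to 1143 ± 189 (SD, n = 3 each), a log2 difference of -1.48 ± 0.24 (limma adjusted p = 0.0165). Without the first KO estrus library the adjusted p of Ide was 0.0561, and it also missed the threshold when the estrus libraries were fitted alone or the spread was not modelled on level. It was 1 of 9, beside 4.20% of all genes, and 2 of the 9 had an unadjusted p below 0.05 (limma), beside 25.8%. None of the 9 passed in the other 3 comparisons, where 0, 1 and 2 had an unadjusted p below 0.05 (KO against WT at diestrus, stages in WT, stages in KO), beside 5.92%, 3.87% and 33.8% of all genes. The median log2 difference of the 9 at estrus was -0.32, against -0.01 for all tested genes. The proprotein convertase Furin averaged 1332 to 2114 over the 4 groups and Ece1, an endothelin-converting enzyme, 1465 to 2210.

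Of 41 genes that carry a receptor signal to and from cyclic AMP 30 were tested, and 0 passed in KO against WT at either stage or between stages in WT, where 5, 4 and 1 of the 30 had an unadjusted p below 0.05 (limma), beside 25.8%, 5.92% and 3.87% of all genes. Between stages in KO, 4 of the 30 passed, beside 16.6% of all tested genes, and 14 had an unadjusted p below 0.05 (limma), beside 33.8%. Pde4a and Pde4b, phosphodiesterases that break cyclic AMP down, rose at estrus by 1.36 ± 0.29 (adjusted p = 0.0124) and 0.99 ± 0.22 (adjusted p = 0.0137). Prkar2a, a regulatory subunit of protein kinase A, and Grk3, a receptor kinase, fell by 0.74 and 0.78 (adjusted p = 0.0256 and 0.0461). Gnas, the Gs alpha subunit, averaged 9049 to 11435 over the groups and Prkar1a 5918 to 7212, and neither passed. The median of the 30 between stages in KO was -0.11. The same fit also compared the stage difference between the genotypes for all 15180 tested genes, these 30 included. In that comparison 0 genes passed at an adjusted p below 0.05 (limma). With few libraries in a group, this does not show that the stage differences were equal.

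Of 24 genes known to be induced by cyclic AMP and CREB, 20 were tested. Junb and Pde4b, which is in both lists, rose at estrus within KO, Junb from 14066 ± 433 to 22277 ± 3272 (0.65 ± 0.17 on the log2 scale, limma adjusted p = 0.027), and 10 of the 20 had an unadjusted p below 0.05. Of all tested genes 16.6% passed and 33.8% had such an unadjusted p. The median of the 20 was 0.55, against -0.01 for all tested genes. It was 0.51 for the 9 genes induced by progesterone and estrogen that are read below. Fos averaged 82642 in KO and 56288 in WT at estrus (0.55 ± 0.23, adjusted p = 0.155). None of the 20 passed in KO against WT at either stage or between stages in WT, where 5, 4 and 1 had an unadjusted p below 0.05, beside 25.8%, 5.92% and 3.87% of all genes.

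The hypoxia-induced genes, listed because Adm belongs with them, did not move one way. Of 18 tested, Egln3, a prolyl hydroxylase of the hypoxia-inducible factors, rose at estrus within KO by 1.33 ± 0.31 (limma adjusted p = 0.0177). Vegfa (-1.04, adjusted p = 0.0176), the glycolytic regulator Pfkfb4 (-0.80, adjusted p = 0.0305), Ero1l (-0.74) and Kdm3a (-0.54) fell, and the median of the 18 was -0.22. These were 5 of 18, beside 16.6% of all genes, and 8 of the 18 had an unadjusted p below 0.05 (limma), beside 33.8%. In the other 3 comparisons none of the 18 passed, and 5, 5 and 2 had an unadjusted p below 0.05 in KO against WT at estrus and at diestrus and between stages in WT, beside 25.8%, 5.92% and 3.87% of all genes.

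Genes induced by progesterone and estrogen were read because the stage is defined by these hormones. Of 9 tested, Wnt4, a progesterone target in luminal cells, was the one that passed, higher at estrus within KO by 0.64 ± 0.16 (limma adjusted p = 0.0204), 1 of 9 beside 16.6% of all genes. Greb1, an estrogen receptor target, was at 173, 51 and 2 in WT and 21, 18 and 13 in KO at estrus, and at 109 and 248 in WT and 13 and 36 in KO at diestrus. The first WT estrus library, with the lowest Ramp1 and Calca of all, thus had the highest Greb1 at estrus. Prlr, the prolactin receptor, averaged 29236 to 41520 and did not pass. Between stages in KO the median of the 9 was 0.51, against -0.01 for all tested genes. There 2 of the 9 had an unadjusted p below 0.05 (limma), beside 33.8% of all genes. None of the 9 passed in the other 3 comparisons, and 2 had an unadjusted p below 0.05 in each, beside 25.8% of all genes at estrus, 5.92% at diestrus and 3.87% between stages in WT.

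The 11 list genes named as rising or falling between stages in KO kept their direction in every alternative run, and all 11 lost the call when either KO diestrus library was left out (highest adjusted p of each, 0.125 to 0.266). Pde4a, Pde4b and Vegfa lost it in no other alternative. Egln3 also lost it without the first KO estrus library and Wnt4 without the second, and the other 6 lost it in more settings. Of those 6, all but Pfkfb4 (Ero1l, Grk3, Junb, Kdm3a and Prkar2a) lost it when the transcript length trend was removed. With that trend removed, 1728 of 15146 genes passed between stages in KO. Among all tested genes 2524 passed in this comparison, with 151 and 39 left without the first and the second KO diestrus library and 1331 without the first KO estrus library.

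Genes whose values over the 10 libraries most resembled each member were ranked by Pearson's r on the log2 scale, among about 10455 genes with a mean of at least 50. The libraries share the groups, so r is a description. Nearest to Ramp1 was Cthrc1 (r = 0.973), a secreted collagen triple helix repeat protein, at 69, 115 and 190 in WT and 280, 245 and 302 in KO at estrus and 92, 66, 79 and 89 at diestrus. It was followed by Hadh and Phyh, enzymes of fatty acid oxidation (both 0.96), and by Taf6l and Chaf1b (both 0.959). For the Ramp2 row the nearest was Vps25 (r = 1), with which it shares exons, and then Sdhc (0.988), a subunit of respiratory complex II, the mitochondrial ribosomal proteins Mrpl12 (0.987) and Mrps26 (0.976), and Hypk (0.976).

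The peptide genes each had different neighbours. Calca ran closest to Hfe (0.955) and Klhl13 (0.924), and Hfe was lowest in the first WT estrus library, at 102, and highest in the third KO estrus library, at 350, as Calca was. Hepacam2, Pygl and Cldn10 followed, at 0.904 to 0.917. Calcb ran closest to Pfkfb4 (0.923), which was 823 and 804 in KO at diestrus and 358, 445 and 641 in KO at estrus, and then to Clip4, Usp11, Ankrd61 and Scnn1b (0.907 to 0.917). Adm ran closest to Klf9 (0.926), a transcription factor induced by glucocorticoids and progesterone, which like Adm was lowest in the third WT estrus library (844) and highest in the third KO estrus library (1758). Neu1, Mus81, Fbxl20 and Oser1 followed, at 0.856 to 0.894.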

How the data were processed

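RNA of sorted luminal cells was sequenced in 10 libraries. The deposited values are scores in the sense of normalized counts rounded to whole numbers; STAR, HTSeq, DESeq2 and mm10 are named in the submitters' processing notes, with no versions given in the sources used here. The authors scaled the counts before deposit, so no count test was run. From the steps between low values, each library's scaling factor was estimated at 0.8374 to 1.1814, which gave the estimated reads and the 3-read floor. Gene IDs were matched to GENCODE M21 (26249 of 26312 have a symbol).

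Log2(value + 1) of the 15180 genes with a mean of at least 10 was fitted with limma 3.58.1 in R 4.3.3, with a trend in the spread and 1 mean per group over all 10 libraries. P-values are two-sided and were adjusted by Benjamini-Hochberg over all tested genes (threshold 0.05); fold changes of low genes are understated on this scale. The fit was tested on simulated data for KO against WT at estrus only, with the same spread setting for all genes. That run does not cover the other comparisons or genes that spread as widely as Calca. Members and lists were chosen with earlier results of these data known. From each list, genes that passed (at most 6) and the 2 of highest mean are named, and for each member the 5 genes of highest r. Promoters are RefSeq's 250 bases before the start. Figures were drawn with matplotlib 3.10.9. Alternatives changed pseudocount, filter, scaling, spread model, groups fitted and libraries; removal of the length trend was added after the data were seen.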

Additional observations from a re-analysis of the deposited data

How the results depend on the processing

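The description of Ramp1 at estrus kept its direction in every alternative run, and leaving out 1 library gave 1.29 to 2.06. At diestrus, the same gave -0.25 to 0.50, with -0.25 without the second WT and -0.10 without the second KO diestrus library, where 1 library then stands for the group. Of 4 members tested between stages in KO, 1 passed; 0 passed with a pseudocount of 0.5, with no filter, with a mean of at least 50 (Calcb was then not tested), with no trend in the spread and with the compared groups alone, and 2 passed with quantile normalization and with library weights. Leaving out 1 library gave 0 to 1. The member that passed with all libraries is Calcb, which reached the filter only through its high KO diestrus values; the cause of the changes was otherwise not tested. The counts in the other 2 tested comparisons were 0 in every alternative. Several single-member values moved when 1 library was left out. Among them, Calca at estrus moved to -0.12 without the first WT estrus library. Adm at estrus moved to 0.07 without the third WT estrus library, and Calcb at estrus to -2.24 without the third KO estrus library.

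Whether replicate numbers pair the libraries was not settled. Correlations of deviations between same-numbered libraries of 2 groups were -0.132 to 0.187, and between differently numbered ones -0.147 to 0.132. In a group of 2 libraries the deviations are exact opposites, so correlations that involve diestrus cannot decide it. Between WT and KO at estrus, same numbers gave 0.187, 0.083 and 0.031 and other numbers -0.147 to 0.079. With the number as a block, Ramp1 at estrus was 1.80 and at diestrus 0.12, 1 member passed between stages in KO and 0 at diestrus and between stages in WT, and 996 genes passed at estrus in place of 637. With few libraries in a group, differences as wide as those of Calca could not be resolved. Over all tested genes, counts of calls ranged over the alternatives from 23 (compared groups alone) to 996 (block) at estrus against 637, from 0 (no filter, or without any 1 diestrus library) to 147 (library weights) at diestrus against 6, from 0 to 6 between stages in WT against 0, and from 39 (without the second KO diestrus library) to 3884 (library weights) between stages in KO against 2524.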

Other observations

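Tomm6, a subunit of the mitochondrial import complex, and the predicted gene Gm21981 were a second pair of rows that agreed within 1% in all 10 libraries, with means of 650.4 and 650.3 normalized counts. They lie on the same strand and share 859 exon bases. Akap2 with Pakap (means 289.3 and 291.6) and Rpl13a with Gm45713 (3006.9 and 2995.7) agreed within 1% in 8 of the 10 libraries. These pairs were picked after their values were seen.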
